A study of Mus musculus with 12 samples.

Results

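The killer lectin receptor genes Klrg1, Klrk1, Klrd1 and Klrc1 were followed in CD8+ T cells sorted from mouse tumours. They were taken by name from a panel of 773 probes, of which they make up 4 rows. Earlier results of these data were known when they were chosen. MC38 tumours, grown from a mouse colon carcinoma line in C57BL/6J mice, were left untreated or were irradiated with 20 Gy at a size of 40 to 100 mm3. There were 12 samples in 4 groups of 3, labelled Nontreated, SRT, CRT and SRT-like. The labels do not spell out the abbreviations of the 3 radiotherapy modes, which are used as given. All groups shared the tumour line, the mouse strain, a CD45 enrichment and the sort for CD8+ T cells. RNA was counted with the NanoString nCounter Mouse Immune Exhaustion panel, in which a barcoded probe pair reports single RNA molecules without amplification. The labels give no age or sex of the mice nor whether each sample was a different mouse. The p-values below therefore describe the spread among these 12 samples, and that spread may be technical.

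Killer lectin receptors are C-type lectin-like receptors of natural killer cells that activated CD8+ T cells also carry. Klrd1 encodes CD94, which has no signalling tail of its own and pairs with NKG2A, the product of Klrc1, into an inhibitory receptor for the non-classical MHC molecule Qa-1. Klrk1 encodes NKG2D, an activating receptor for stress-induced ligands of the RAE-1, H60 and MULT1 families. Klrg1 encodes an inhibitory receptor for cadherins that marks effector T cells late in differentiation.

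In the RefSeq annotation of GRCm38.p6, all 4 genes lie on chromosome 6. Klrd1 and Klrk1 are neighbours with 0 protein-coding genes between them. Klrk1 and Klrc1 have 2 between them, Klrc3 and Klrc2, and Klrg1 lies apart from Klrd1 by 133 protein-coding genes. The Klrc1 probe could also take up RNA of Klrc2 and Klrc3, its close relatives, and the target positions of the probes were not used here. RefSeq promoter windows of 300 bases, 250 before the gene's start and 50 after it, were matched for 2 of the 4 genes, Klrk1 and Klrc1. No windows of Klrg1 and Klrd1 were available, so only these 2 are shown. Klrk1 and Klrc1 had the highest r over the 12 samples among the members (0.79). With group means removed, Klrk1 was more alike to Klrd1 (0.86) than to Klrc1 (0.70). Both lie on the minus strand, at chr6:129623815-129624114 for Klrk1 and chr6:129678924-129679223 for Klrc1, and are printed in the direction of the gene with matches to the motifs searched in capitals.
Klrk1: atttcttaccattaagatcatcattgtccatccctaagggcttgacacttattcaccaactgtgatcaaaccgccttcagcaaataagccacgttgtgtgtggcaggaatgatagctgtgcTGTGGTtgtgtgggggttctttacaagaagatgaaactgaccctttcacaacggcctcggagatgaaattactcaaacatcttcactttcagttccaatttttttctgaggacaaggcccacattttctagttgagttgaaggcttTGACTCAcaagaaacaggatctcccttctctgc
Klrc1: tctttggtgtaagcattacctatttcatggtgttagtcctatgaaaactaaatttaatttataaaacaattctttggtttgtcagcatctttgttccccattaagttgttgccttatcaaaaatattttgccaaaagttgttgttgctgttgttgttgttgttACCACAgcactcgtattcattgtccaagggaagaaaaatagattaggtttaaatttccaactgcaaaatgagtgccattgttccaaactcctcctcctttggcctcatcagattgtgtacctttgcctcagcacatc
Both strands were searched for 4 short motifs: GTGTGA for T-box factors, TGTGGT for RUNX factors, TTCNNNGAA for STAT factors and TGANTCA for AP-1. T-box, RUNX, STAT and AP-1 factors all take part in CD8+ T cell differentiation. The RUNX motif matched 1 time in each window, beginning 129 bases before the start of Klrk1 and, on the opposite strand, 87 bases before the start of Klrc1. The Klrk1 window also held 1 AP-1 match, 17 bases after the start. The Klrc1 window held 0 AP-1 matches, and both held 0 T-box and 0 STAT matches. Of 32851 promoter windows of the same length, 16.8% held the RUNX motif, 7.8% AP-1, 14.5% T-box and 8.3% STAT. A match is a string of letters in the window and not a shown binding site.

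The deposited values are log2 normalized counts. The molecule counts before scaling were recovered from them and ranged from 118694 in Nontreated replicate 3 to 467904 in Nontreated replicate 2. The median over all probes of their log2 differences from Nontreated was 0.22 for SRT, 0.26 for CRT and 0.15 for SRT-like. Among the markers of the sorted cells, 5 of 6 CD8 T cell genes were on the panel and all 5 were above background in 12 of 12 samples. Their summed level spanned 9270 to 12618 normalized counts without treatment, 9866 to 13074 after SRT, 10247 to 12650 after CRT and 11597 to 13814 after SRT-like. Markers of other cells were mixed. Of the CD4 and regulatory T cell genes, Cd4 was above background in 1 of 12 samples and Foxp3 and Cd40lg in 9 each. Of the myeloid genes, Csf1r and Cd14 were above it in 0, Cd163 in 6, Fcgr1 in 9 and Cd68 in 12. Of the B cell genes, Ms4a1 was above it in 0, Blk in 2, Cd79b in 8 and Ighm in 12. Of the gamma delta T cell genes, Trdc, Trgv4 and Il17a were above it in 0, Rorg in 5 and Trgc1/2/3 in 12, with a mean of 5.45 in Nontreated and 6.38 to 6.67 in the modes. Natural killer cells carry the same lectin receptors, so their markers matter most here. Of 10 natural killer markers 7 were on the panel and 5 were above background in all 12 samples, namely Tyrobp and 4 that CD8+ T cells also express, Nkg7, Gzma, Xcl1 and Eomes. Fcer1g was above it in 8. Ncr1, the most restricted to natural killer cells, was above background in 6 of 12 samples. The summed level of the 7 markers was 7480 to 8262 in SRT-like, 6689 to 7308 in CRT, 6017 to 6952 in SRT and 5618 to 7374 in Nontreated. In bulk samples, fewer cells that carry a transcript and less of it per cell cannot be told apart.

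All 4 receptor genes were above background in 12 of 12 samples, and none differed between groups past the threshold. Klrd1, the CD94 chain, was on average lower after irradiation, and Klrk1 and Klrc1 were on average higher after CRT and SRT-like. On the deposited scale these groups overlapped with Nontreated, except for Klrc1 in SRT-like. With samples centred on their median, the difference of Klrc1 in CRT turned to -0.11. That of Klrk1 in CRT ranged from 0.05 to 0.53 over the alternative settings run. Set against the Cd3 and Cd8 transcripts of the same sample, Klrd1 was lower in all 9 irradiated samples than in all 3 Nontreated samples, as were 0.647% of all probes, but limma's adjusted p was 0.64 and with Cd3e alone as the reference 2 of 9 samples were lower. In a comparison taken up after the values had been seen, Klrd1 was also lower in all 9 relative to Klrk1 of the same sample, as it was relative to 9.59% of the other probes above background. The 4 probes together held 3.37 to 4.82% of the molecules counted in a sample.

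Klrd1 read 12.03, 12.17 and 11.73 in the 3 Nontreated samples, on the log2 scale. It read 11.58, 11.98 and 11.50 in SRT, 11.81, 11.94 and 11.74 in CRT, and 11.93, 11.61 and 11.61 in SRT-like. Nontreated replicates 1 and 2 stood above every irradiated sample, while Nontreated replicate 3, the shallowest sample, lay among them, so the groups overlapped. The group means were 11.98 ± 0.22 (SD, n = 3) in Nontreated, 11.83 ± 0.10 in CRT, 11.72 ± 0.18 in SRT-like and 11.69 ± 0.26 in SRT. The differences from Nontreated were -0.15 for CRT, -0.26 for SRT-like and -0.29 for SRT, each with an SE of 0.19. In limma their adjusted p-values were 0.744, 0.721 and 0.555. For the mean of the 3 modes the difference was -0.23, with a 95% interval of -0.58 to 0.11 and a limma adjusted p of 0.516. No neighbours in the order of means differed beyond the spread between samples. The lowest and highest sample lay 1.59-fold apart, on counts of 1695 to 8783 molecules.

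Klrc1, the NKG2A partner of Klrd1, read 11.97, 12.10 and 11.83 in Nontreated and 11.78, 12.03 and 11.85 in SRT. It read 12.07, 12.33 and 12.15 in CRT and 12.22, 12.29 and 12.13 in SRT-like. All 3 SRT-like samples stood above all 3 Nontreated samples, and all 3 SRT samples stood below all CRT and all SRT-like samples. The means were 12.21 ± 0.08 (SD, n = 3) in SRT-like, 12.19 ± 0.13 in CRT, 11.97 ± 0.14 in Nontreated and 11.89 ± 0.13 in SRT. SRT-like exceeded Nontreated by 0.25 (SE 0.15), with a limma adjusted p of 0.626, and 13.2% of the 773 probes stood higher without overlap in that comparison. The natural killer marker sum given above was also higher in all 3 SRT-like samples than in all 3 Nontreated samples, and its part in this difference was not tested. That sum is mostly Nkg7, which averaged 12.26 in Nontreated and 12.50 in SRT-like, while Tyrobp averaged 6.15 and 5.39, Fcer1g 4.74 and 4.45, and Ncr1 3.96 and 4.33. SRT was below CRT (difference -0.30, SE 0.15, limma adjusted p 0.812), where 7.76% of the probes were lower without overlap. SRT was also below SRT-like (difference -0.33, SE 0.15), with an unadjusted p of 0.0593 in limma, an adjusted p of 0.864, and 2.85% of the probes lower without overlap. In an exact permutation test of the F statistic over the 369600 splits into 4 groups, Klrc1 gave p = 0.0366, which was 0.146 after adjustment over the 12 values computed for 4 genes on 3 scales. Klrc1 varied least of the 4, with 1.46-fold between the lowest and highest sample on 1812 to 8365 molecules.

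Klrk1, the activating receptor NKG2D, read 11.09, 11.40 and 10.73 in Nontreated and 11.02, 11.41 and 10.92 in SRT. It read 11.47, 11.70 and 11.16 in CRT and 11.48, 11.25 and 11.48 in SRT-like. Every CRT and SRT-like sample lay above the Nontreated mean, but Nontreated replicate 2 reached into both groups. The means were 11.44 ± 0.27 (SD, n = 3) in CRT, 11.40 ± 0.14 in SRT-like, 11.12 ± 0.26 in SRT and 11.07 ± 0.34 in Nontreated, and no neighbours in that order differed beyond the spread. The limma differences from Nontreated were 0.37 for CRT, 0.33 for SRT-like and 0.05 for SRT, each with an SE of 0.22, and their adjusted p-values were 0.476, 0.664 and 0.945. The 95% interval for CRT ran from -0.13 to 0.87. Klrk1 spanned 1.96-fold over the samples, on 847 to 5156 molecules. Its r with the log2 total count was 0.44 over the 12 samples, against 0.50 for Klrd1, 0.25 for Klrc1 and -0.18 for Klrg1.

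**Figure D1:**
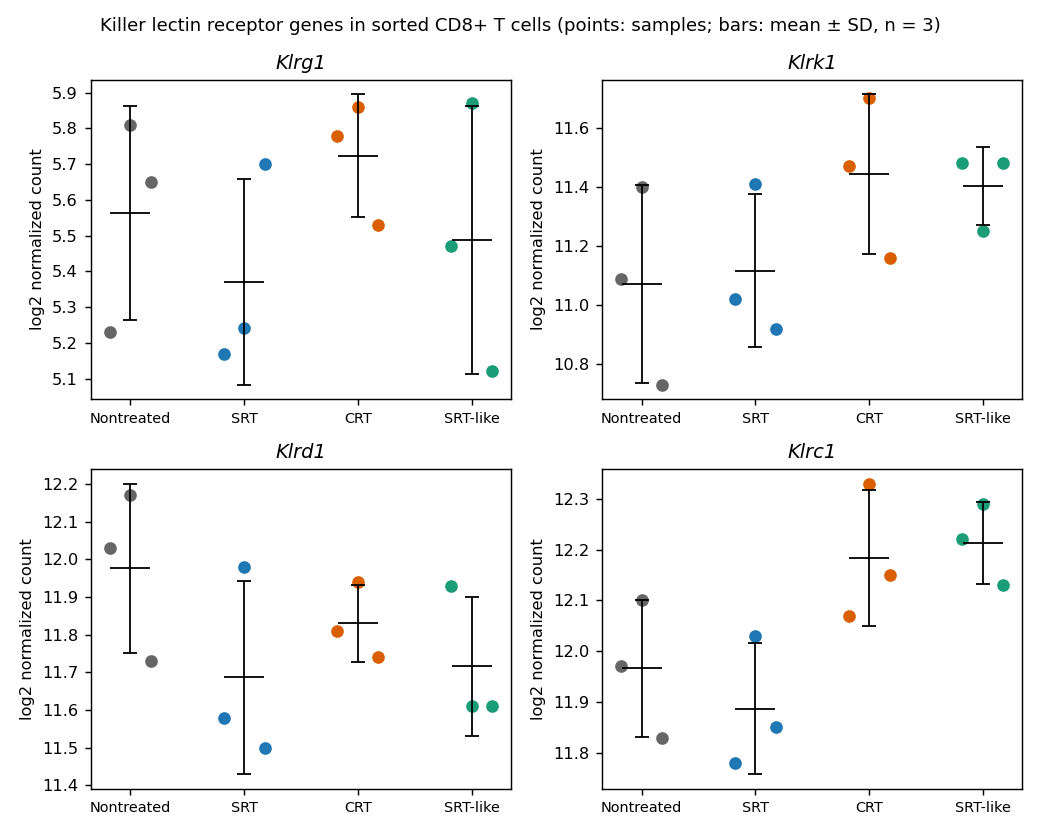
Log2 normalized counts of the 4 receptor genes by group, each point 1 sample and each bar the mean ± SD of 3 samples, on a separate vertical range for each gene. Klrd1 has its highest mean in Nontreated (11.98), while Klrc1 (12.21 and 12.19) and Klrk1 (11.40 and 11.44) have their highest means in SRT-like and CRT.

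Klrg1, the late effector marker, was low in every sample. It read 5.23, 5.81 and 5.65 without treatment, 5.17, 5.24 and 5.70 after SRT, 5.78, 5.86 and 5.53 after CRT, and 5.47, 5.87 and 5.12 after SRT-like. The groups overlapped in every comparison. These values rested on 60, 107 and 25 molecules without treatment, 43, 42 and 33 after SRT, 67, 36 and 27 after CRT and 72, 62 and 36 after SRT-like. The smallest count, 25, had a 95% Poisson interval of 16.2 to 36.9 molecules, which covers counting error only. Klrg1 stood at 1.53 to 4.61 times the background threshold of its sample, and the other 3 genes at 60.4 times or more. The means were 5.72 ± 0.17 (SD, n = 3) in CRT, 5.56 ± 0.30 in Nontreated, 5.49 ± 0.38 in SRT-like and 5.37 ± 0.29 in SRT. The largest distance between these groups was SRT against CRT, -0.35 with a 95% interval of -0.89 to 0.19 and a limma adjusted p of 0.865. For the mean of the 3 modes against Nontreated the interval was -0.48 to 0.41. The SD within groups, pooled over the 4 groups, was 0.294 for Klrg1 and 0.259 for Klrk1, which rests on many more molecules.

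**Figure D2:**
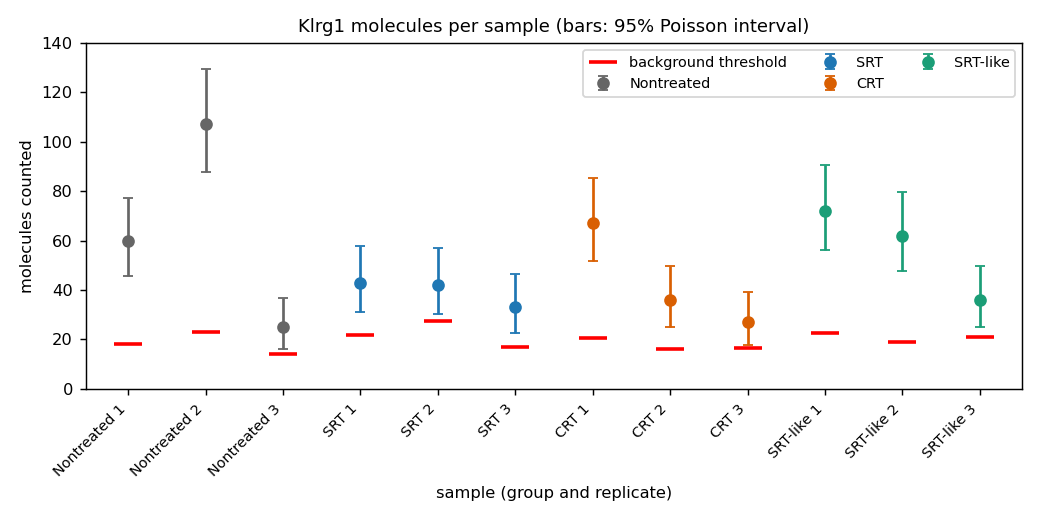
Klrg1 molecules counted in each of the 12 samples (points, with 95% Poisson intervals) and the background threshold of that sample (red bars). The counts of 25 to 107 lie above the threshold in every sample, and the interval of the smallest count begins at 16.2 molecules.

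Over the whole panel, 0 of the 4 receptor genes passed a limma adjusted p of 0.05 in any of 7 comparisons or in the F test. Against Nontreated, the share of all 773 probes that passed was 0% for SRT, 3.1% for CRT, 0.647% for SRT-like and 3.1% for the mean of the 3 modes. Between the modes it was 0% for SRT against CRT, 0% for SRT-like against CRT and 0% for SRT against SRT-like, and it was 0% for the F test over the 4 groups. At an unadjusted limma p below 0.05, 0 of the 4 genes passed in any comparison on this scale. Of the 773 probes, 84 passed in this way for SRT, 119 for CRT, 86 for SRT-like and 118 for the mean of the 3 modes. Between the modes, 51 passed for SRT against CRT, 76 for SRT-like against CRT and 44 for SRT against SRT-like. The 3 comparisons with Nontreated share their control samples, so their values for a gene are not independent. For the mean of the 3 modes the differences were -0.23 for Klrd1, 0.13 for Klrc1, 0.25 for Klrk1 and -0.03 for Klrg1, beside a median of 0.22 over all probes.

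**Figure D3:**
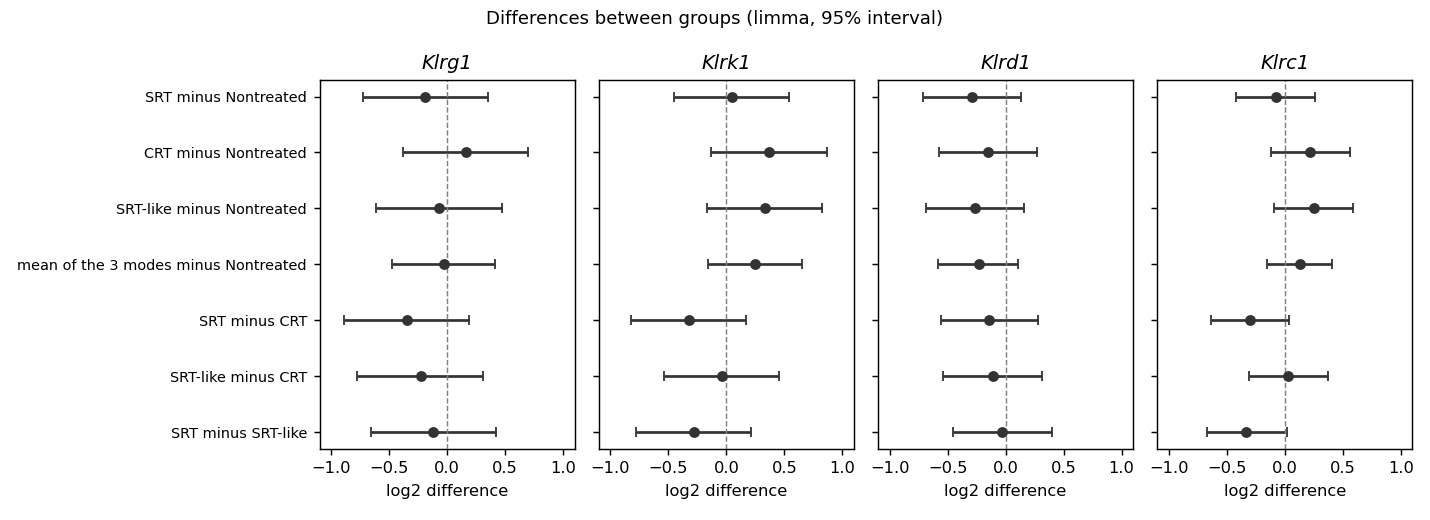
Log2 difference of each gene in 7 comparisons, as the limma estimate (point) with its 95% interval (line), all on 1 horizontal range. Every interval includes 0, including the one nearest to excluding it, Klrc1 in SRT against SRT-like, at -0.67 to 0.02.

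The comparison depends on what a sample is scaled to, so the receptors were also set against the T cell transcripts themselves. For this the mean of the log2 values of Cd3d, Cd3e and Cd3g, of the T cell receptor complex, and of the co-receptor chains Cd8a and Cd8b1 was subtracted in each sample. None of these 5 reference probes passed the threshold in any comparison with Nontreated. All 5 were on average higher in SRT-like, though, from 0.01 (SE 0.17) for Cd3d to 0.39 (SE 0.16) for Cd8a. A higher reference lowers the value of a receptor on this scale. On this scale Klrd1 read 0.84, 0.93 and 0.92 in Nontreated, against 0.52, 0.68 and 0.57 in SRT. It read 0.72, 0.76 and 0.78 in CRT and 0.54, 0.45 and 0.44 in SRT-like. All 9 irradiated samples lay below all 3 Nontreated samples, which sat within 0.09 of each other, Nontreated replicate 3 included. The means were 0.90 ± 0.05 (SD, n = 3) in Nontreated, 0.75 ± 0.03 in CRT, 0.59 ± 0.08 in SRT and 0.48 ± 0.05 in SRT-like. CRT lay above SRT and above SRT-like without overlap, while SRT and SRT-like overlapped. Of all 773 probes, 0.647% (5 probes) were lower in all 9 irradiated samples on this scale, namely Klrd1, Acsl4, Nras, Ptpn6 and Tox. Mode by mode, 2.2% of the probes were lower than Nontreated without overlap after SRT, 1.42% after CRT and 6.6% after SRT-like. Between modes, 6.86% were lower without overlap in SRT than in CRT, and 23.7% in SRT-like than in CRT.

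The 2 tests run on this scale differ in their answer for Klrd1, and their p-values were adjusted over different sets. The permutation test was run on the 4 receptor genes only, so the share of all probes that would pass it is not known. The exact permutation F over the 4 groups gave p = 0.00013, which was 0.00156 after adjustment over the 12 values computed, whereas on the deposited scale the exact permutation p was 0.333, adjusted to 0.444, and with samples centred on their median it was 0.147, adjusted to 0.294. Limma moderates the variance of each probe toward that of the panel, and its p-values were adjusted over all probes. Its F test over the 4 groups gave F = 2.43 for Klrd1, with an unadjusted p of 0.122 and an adjusted p of 0.757. In limma the mean of the 3 modes differed by -0.29 (SE 0.14), with an unadjusted p of 0.0584 and an adjusted p of 0.64. For SRT-like the limma difference was -0.42 (SE 0.17), with an unadjusted p of 0.0293 and an adjusted p of 0.808. Among all probes, 0% passed the adjusted limma threshold as lower on this scale for SRT, 0% for CRT, 0% for SRT-like, 0% for the mean of the 3 modes and 0% for the F test. With 1 sample left out at a time, the difference for the 3 modes stayed between -0.32 and -0.27. The separation of the samples differed between single references. Klrd1 lay below all Nontreated samples in 9 of 9 irradiated samples against Cd3d, 8 against Cd8b1, 7 against Cd3g, 7 against Cd8a and 2 against Cd3e.

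On the Cd3 and Cd8 scale Klrk1 and Klrc1 had their highest means in CRT, unlike Klrd1. Klrk1 read -0.11, 0.16 and -0.08 in Nontreated and 0.38, 0.52 and 0.20 in CRT, so all 3 CRT samples stood above all 3 Nontreated samples. Of all probes, 12.5% did so in that comparison. The limma difference for Klrk1 in CRT was 0.38 (SE 0.19, adjusted p 0.545), and the exact permutation F over the 4 groups gave p = 0.0318, adjusted to 0.146. Klrc1 averaged 0.88 ± 0.12 (SD, n = 3) without treatment, 1.11 ± 0.11 after CRT, 0.97 ± 0.15 after SRT-like and 0.79 ± 0.11 after SRT, with an exact permutation p of 0.0699, adjusted to 0.21. In both genes the SRT samples lay below the CRT samples without overlap. Klrg1 averaged -5.52 ± 0.41 in Nontreated and overlapped with every mode.

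**Figure D4:**
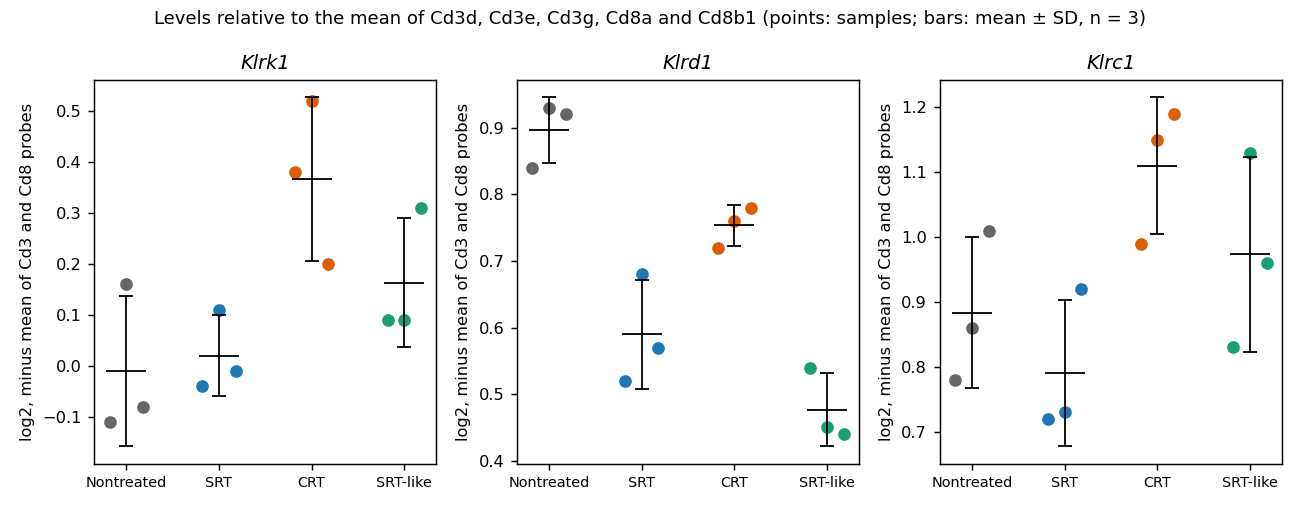
Log2 level of Klrk1, Klrd1 and Klrc1 minus the mean log2 level of the Cd3d, Cd3e, Cd3g, Cd8a and Cd8b1 probes of the same sample (points: samples, bars: mean ± SD of 3). For Klrd1 the 3 Nontreated samples (0.84 to 0.93) stand above all 9 irradiated samples (0.44 to 0.78), whereas for Klrc1 the Nontreated samples lie among the others, and for Klrk1 2 of them (-0.11 and -0.08) lie just below the irradiated samples and 1 (0.16) among them.

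A comparison of 2 receptors within a sample does not depend on the scaling, since any factor for the sample cancels. Probes capture with different efficiency, so only the shift of such a difference between samples was read, not its level. Klrk1 minus Klrd1 was -0.95, -0.77 and -1.0 in Nontreated and -0.56, -0.57 and -0.58 in SRT. It was -0.34, -0.24 and -0.58 in CRT and -0.45, -0.37 and -0.13 in SRT-like. The difference was larger in all 9 irradiated samples than in all 3 Nontreated samples, and the 3 SRT samples sat within 0.02 of each other. In molecules, Klrk1 made up 33.3 to 37.0% of the sum of both in Nontreated and 40.1 to 47.7% after irradiation. The shift was 0.48 on the log2 scale, or 1.40-fold. Its exact permutation p was 0.00909, the smallest that the 220 splits allow, and 0.0545 after adjustment over the 6 pairs of members. Over the 4 groups, the exact permutation p of the F statistic was 0.00253, adjusted to 0.0152 over the 6 pairs.

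Klrd1 minus Klrc1, the 2 chains of the CD94 and NKG2A receptor, was 0.06, 0.07 and -0.10 in Nontreated. It was -0.20, -0.05 and -0.35 in SRT, -0.27, -0.39 and -0.41 in CRT and -0.30, -0.68 and -0.52 in SRT-like. In 8 of 9 irradiated samples it lay below all Nontreated samples, and SRT replicate 2 was the exception. The shift was -0.36, with an exact permutation p of 0.0182, adjusted to 0.0545, and over the 4 groups the permutation p was 0.00792, adjusted to 0.0238. With 1 sample left out at a time, the adjusted exact p of both pairs ran from 0.0364, without SRT replicate 2, to 0.218, without Nontreated replicate 1 or 2. Without a Nontreated sample far fewer splits remain and the smallest possible p is higher. Leaving out Nontreated replicate 3 removes as many splits but did not give 0.218, so the number of splits is not the whole of the rise. In Klrd1 minus Klrc1, Nontreated replicate 3 (-0.10) lay below SRT replicate 2 (-0.05), whereas Nontreated replicates 1 and 2 lay above every irradiated sample. The other 4 pairs gave exact permutation p-values of 0.273 or more, among them Klrk1 minus Klrc1, with a shift of 0.12. As a background, 6.82% of the 87153 pairs among 418 probes above background in all samples separated the 9 irradiated from the 3 Nontreated samples in either direction. Klrd1 was lower in this way relative to 9.59% of the 417 other probes, and Klrk1 was higher relative to 1.92%. These pairs were taken up after the values had been seen.

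**Figure D5:**
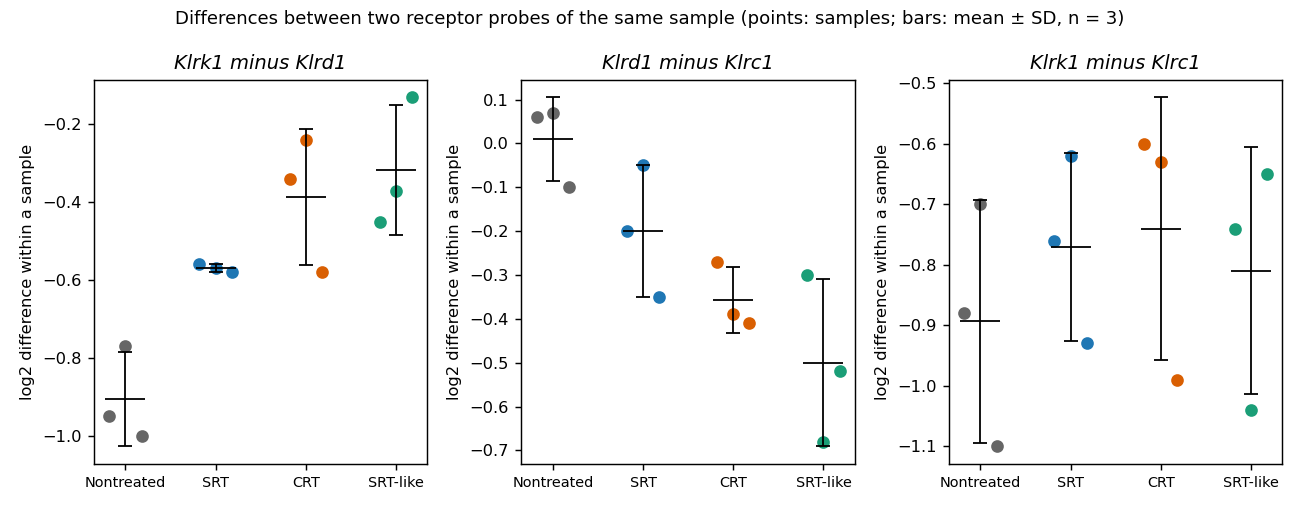
Log2 difference between 2 receptor probes of the same sample, each point 1 sample and each bar the mean ± SD of 3 samples. Klrk1 minus Klrd1 lies between -1.0 and -0.77 in Nontreated and between -0.58 and -0.13 in the irradiated samples, Klrd1 minus Klrc1 is highest in Nontreated with overlap in 1 SRT sample, and Klrk1 minus Klrc1 overlaps in all groups.

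The genes with the most alike pattern were sought among 417 other probes above background in all 12 samples, by Pearson's r of the deposited log2 values over the 12 samples, given as a description. These samples share their scaling factors and depth, so an r includes what these have in common. Klrd1 was most alike to Glud1 (r = 0.91), Acsl4 (0.88) and Cd3d (0.84). After the group means were removed, its r with Cd3d was 0.96, with Klrk1 0.86 and with Klrc1 0.75. Across all 12 samples, group differences included, its r was 0.44 with Klrk1 and 0.30 with Klrc1. Klrk1 was most alike to Hspa5 (0.86), Cd8b1 (0.86) and Bak1 (0.85). Klrc1 was most alike to Tox4 (0.84), Ccl5 (0.81) and Klrk1 (0.79), the highest r between 2 receptor genes. Klrg1 was most alike to Chuk (0.79), Ptprc (0.79) and Cd6 (0.76), and its r with the other 3 receptor genes was 0.09 to 0.39.

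Partners of the receptors on the panel were compared in the same limma fit. Of 13 ligands 3 were measured and 0 passed in any comparison. H2-T23, the Qa-1 gene, averaged 8.65 ± 0.32 (SD, n = 3) without treatment, 9.32 ± 0.40 after SRT, 9.32 ± 0.70 after CRT and 9.66 ± 0.25 after SRT-like, with a limma difference of 0.79 (SE 0.28, adjusted p 0.205) for the 3 modes. Ulbp1, the gene of the NKG2D ligand MULT1, averaged 5.79 in Nontreated and 5.83 to 6.19 in the modes. Of 15 adaptor and signalling genes 14 were measured, and 1 passed, in CRT. In that comparison 3.1% of all 773 probes passed, 23 as higher and 1 as lower. Ptpn6, the phosphatase SHP-1 that inhibitory lectin receptors recruit, fell in CRT from 9.05 ± 0.16 to 8.23 ± 0.04 (SD, n = 3; difference -0.82, SE 0.19, limma adjusted p 0.0447). It averaged 8.64 in SRT and 8.60 in SRT-like, where its adjusted p-values in limma were 0.451 and 0.374. The median difference of the 14 genes for the 3 modes was -0.02. Fyn, a Src-family kinase, averaged 10.09 in Nontreated and 9.79 to 9.90 in the modes.

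Among other natural killer receptors, 9 of 26 were measured and 1 rose for the 3 modes, where 3.1% of all 773 probes passed, 24 as higher and 0 as lower. Cd226, the activating receptor DNAM-1, averaged 8.58 ± 0.23 (SD, n = 3) without treatment, 9.20 ± 0.14 after SRT, 9.22 ± 0.10 after CRT and 9.18 ± 0.13 after SRT-like, a difference of 0.62 for the 3 modes (SE 0.14, limma adjusted p 0.0398). The median of the 9 was 0.21. The other killer lectin rows of the panel, Klrb1 and Klrb1a, were above background in 2 and 1 of 12 samples. Of 18 effector and memory genes that vary with Klrg1, 12 were measured, 2 rose and 0 fell for the 3 modes, beside the same 3.1% of all probes, and their median was 0.58. Klf2, a regulator of T cell trafficking, rose from 5.46 ± 0.37 to 6.67, 6.22 and 6.92 in SRT, CRT and SRT-like (difference 1.14, SE 0.22, limma adjusted p 0.0304 for the 3 modes). Cxcr3, a chemokine receptor of effector T cells, rose from 7.35 ± 0.27 to 7.91, 8.58 and 8.01 (difference 0.82, SE 0.18, limma adjusted p 0.0372). Of 10 genes of interleukin 2 and 15 signalling 6 were measured and 0 passed, with a median of 0.02. The smallest p-values there were those of the cytokine gene Il15, above background in 3 of 12 samples, and Stat5a/b, a shared probe that averaged 9.59 in Nontreated and 9.37 to 9.57 in the modes. All 10 cytotoxic genes were measured and 0 passed, with a median of 0.23, and their smallest p was that of Gzmb, granzyme B (difference 0.86, limma adjusted p 0.153). Tnf was next, at 6.50 in Nontreated and 7.07 to 7.65 in the modes. The median over all probes was 0.22 in the same comparison. Relative to the Cd3 and Cd8 probes, 0 of 773 probes passed for the 3 modes and 0 passed as lower in CRT, so the calls of Cd226, Klf2 and Cxcr3 for the 3 modes and of Ptpn6 in CRT were lost on that scale. Their differences there were 0.56 for Cd226, 1.09 for Klf2, 0.76 for Cxcr3 and -0.81 for Ptpn6, with limma adjusted p-values of 0.263, 0.15, 0.191 and 0.186.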

How the data were processed

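RNA of sorted CD8+ T cells from 12 samples was read on a NanoString nCounter panel. The deposited values are log2 counts, which the authors had normalized with the ROSALIND software, per the labels' descriptions. The version, the reference probes and the background handling are not given there. Within a sample, 100% of the values on the linear scale were whole multiples of a single step (tolerance 0.01), which gave the molecule counts.

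Background was the mean plus 2 SD of 30 probes for genes of other tissues or a virus, chosen by gene name after the receptors' values had been seen. By it, 490 probes were above background in every sample of at least 1 group, and 418 in all 12; no probe was left out of the tests. Of 773 probe names, 756 matched RefSeq (GRCm38.p6).

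Groups were compared with limma 3.58.1 (R 4.3.3; lmFit, eBayes without trend), fitted to all 12 samples with 4 group means. 2-sided p-values were adjusted by Benjamini-Hochberg over all 773 probes, and 0.05 was the threshold. The fit was tested on simulated data. Exact permutation tests over samples (scipy 1.17.1) served single values and were adjusted within each set of values, not over all of them together. The sets were the 12 F values of the members, the 6 shifts of the pairs and the 6 F values of the pairs. Exact p-values of the pairs for single modes were also computed. They entered no adjustment and are not given. Alternatives were other scalings, background subtraction, a voom fit, trended and robust variances, sample weights, a filter, a block on runs of sample numbers, and leaving out each sample.

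Members and 13 gene lists (6 of related genes, 7 of cell type markers) were chosen with earlier results of these data known. List genes were named if past the threshold in any comparison, otherwise by the 2 smallest p-values for the 3 modes, and alike genes by the 3 highest r. Of the marker lists, only Blk of the B cell list passed in any comparison with Nontreated (CRT, difference 1.25, limma adjusted p 0.0461), and it was above background in 2 of 12 samples. In CRT, 3.1% of all 773 probes passed.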

Additional observations from a re-analysis of the deposited data

How the results depend on the processing

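In every setting run, 0 of the 4 receptor genes passed limma's adjusted threshold in any comparison or in the F test. The difference of Klrd1 from Nontreated stayed negative in all of them, between -0.49 and -0.14 for the 3 modes. After adjustment over the 12 values, the exact permutation F passed for Klrd1 on the Cd3 and Cd8 scale and for no other gene or scale. That test was run on the 4 receptor genes only and was not adjusted over the panel. The share of all probes that would pass it is therefore not known. Before adjustment, scaling moved the permutation p of 3 genes to the other side of 0.05. As deposited, this p was 0.267 for Klrk1 (F 1.61), 0.333 for Klrd1 (F 1.31) and 0.0366 for Klrc1 (F 5.31). Relative to the Cd3 and Cd8 probes, it was 0.0318 for Klrk1 (F 5.16), 0.00013 for Klrd1 (F 31.87) and 0.0699 for Klrc1 (F 3.69). With samples centred on their median, it was 0.107 for Klrc1 (F 2.91). Small differences that were not past the threshold changed sign. Median centring gave -0.23 (Klrk1 in SRT), -0.16 (Klrg1 in CRT), -0.11 (Klrc1 in CRT), -0.01 (Klrk1) and -0.13 (Klrc1) for the 3 modes, and 0.10 (Klrk1) and 0.03 (Klrd1) for SRT-like against CRT. Quantile normalization gave 0.09 (Klrc1 in SRT), -0.14 (Klrg1 in CRT), -0.13 (Klrc1, SRT-like against CRT), and 0.21 (Klrd1) and 0.06 (Klrc1) for SRT against SRT-like. The Cd3 and Cd8 scale gave -0.14 (Klrc1, SRT-like against CRT), and 0.02 (Klrg1) and 0.11 (Klrd1) for SRT against SRT-like. Sample weights gave 0.00 (Klrg1, 3 modes) and 0.07 (Klrd1, SRT against SRT-like), and the block on runs of sample numbers gave -0.04 (Klrk1 in SRT). The cause was not tested.

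Leaving out 1 sample at a time also turned signs. For Klrg1 the ranges were -0.01 to 0.29 in CRT, -0.27 to 0.11 in SRT-like, -0.20 to 0.09 for the 3 modes and -0.30 to 0.07 for SRT against SRT-like. For Klrk1 they were -0.13 to 0.21 in SRT and -0.18 to 0.09 for SRT-like against CRT, for Klrc1 -0.03 to 0.10 there, and for Klrd1 -0.17 to 0.08 for SRT against SRT-like. On the Cd3 and Cd8 scale they were -0.05 to 0.35 (Klrg1 in CRT), -0.31 to 0.09 (Klrg1, 3 modes) and -0.02 to 0.11 (Klrk1 in SRT). The shift of Klrk1 minus Klrd1 kept its sign, at 0.43 to 0.55, as did that of Klrd1 minus Klrc1, at -0.42 to -0.32. Their adjusted exact p ran from 0.0364 to 0.218, and without a Nontreated sample fewer splits raise the smallest p possible.

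No paired analysis was possible because the labels give samples 12 different numbers that no groups share. The block on sample numbers could not be estimated where SRT-like enters, since that group alone holds its run. Fits on only the groups compared do not apply to the 3 modes or the F test, which use all samples. With 3 samples per group, a comparison of 2 groups has a smallest exact p of 0.1. Klrg1 rests on the fewest molecules, 25 to 107.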
